A study of Mus musculus with 12 samples.

Results

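The heart stores the calcium for each beat in the sarcoplasmic reticulum, and 10 genes that release it, take it back or hold it there are described here in left ventricles of mice lacking the RNA helicase Ddx5 in cardiomyocytes. The genes were taken by name as the core of this store: Ryr2, Atp2a2, Pln, Sln, Casq1, Casq2, Trdn, Asph, Jph2 and Hrc. All 10 were found in both deposited count tables, of 17260 and 17325 genes. Sln did not pass the filter on low counts in either table, so that 9 were tested.

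The 12 libraries came from the left ventricle of male mice, 3 in each of 4 groups, all with floxed Ddx5 alleles. The mCKO group (DDX5fl/fl with MYH6Cre+, 8 weeks old, untreated) was compared with CTR1, floxed mice of that age without Cre or treatment. The iCKO group (Ddx5flox/flox with Myh6MerCreMer) and its control CTR2 (floxed, no Cre) both received intraperitoneal tamoxifen at 20 mg/kg/day for 5 days, and the design text gives 7 days of tamoxifen without saying from which injection they are counted. No age is given for the tamoxifen-treated mice in the sources used here. The Myh6 promoter limits both Cre forms to cardiomyocytes, and MerCreMer is a Cre that tamoxifen brings into the nucleus. As no control carried Cre, an effect of Cre itself and loss of Ddx5 cannot be told apart. The labels do not say that libraries of a group came from separate animals, and p-values then measure only the spread between these samples, which may be technical.

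In each beat, calcium entering through the L-type channel opens the cardiac ryanodine receptor (Ryr2), which empties the sarcoplasmic reticulum into the cytosol and starts contraction. The pump SERCA2 (Atp2a2) returns the calcium, restrained by the small membrane proteins phospholamban (Pln) and sarcolipin (Sln). Inside the store calcium is buffered by calsequestrin (Casq2 in heart, Casq1 chiefly in fast skeletal muscle) and by the histidine-rich calcium-binding protein (Hrc). Triadin (Trdn) and junctin (a product of Asph) tie calsequestrin to the channel, and junctophilin (Jph2) holds the store against the cell's outer membrane.

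Ddx5 itself was lower in every knockout library, at 216 to 233 CPM in mCKO against 396 to 637 CPM in CTR1, and at 196 to 214 CPM in iCKO against 572 to 712 CPM in CTR2, on a scale shared by all 12 libraries. CPM are counts after TMM scaling of the library sizes, which centres the bulk of genes. Libraries held between 19682268 and 25871882 counts. In both mCKO and CTR1, replicate 3 stood apart from replicates 1 and 2: all 9 tested calcium genes were lower in CTR1 replicate 3 than in the mean of the others (median log2 difference -0.29), and 8 of 9 in mCKO replicate 3 (median -0.45). Same-numbered libraries of these groups deviated together, so mCKO values of the calcium genes are given without and with the replicate number as a block. Numbers 1 and 2, however, correlated across numbers (r = 0.553 and 0.529) about as closely as within a number (0.464 and 0.532). It is replicate 3 that stands out. The 8 defining cardiomyocyte markers were all abundant, summing to 68326 to 104846 CPM in CTR1 and 84568 to 97712 CPM in CTR2.

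The start sites of 4 of these genes are shown. Among the calcium genes whose RefSeq promoter sequence was at hand, Pln, Hrc and Ryr2 fell most in fold in iCKO, while Casq1 rose. Each sequence is the 250 bases before the start, 5′ to 3′ on the gene's strand, from RefSeq (GRCm38.p6), with E-box motifs (CANNTG, a site class of basic helix-loop-helix factors) in capitals. Windows are chr10:53337436-53337685 (plus strand) for Pln, chr7:45335019-45335268 (plus) for Hrc, chr13:12106946-12107195 (minus) for Ryr2 and chr1:172219896-172220145 (minus) for Casq1.
Pln: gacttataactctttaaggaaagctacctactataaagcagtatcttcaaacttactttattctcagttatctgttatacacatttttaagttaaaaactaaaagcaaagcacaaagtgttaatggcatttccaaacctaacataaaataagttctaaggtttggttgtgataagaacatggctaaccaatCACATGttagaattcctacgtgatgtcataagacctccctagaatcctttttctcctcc
Hrc: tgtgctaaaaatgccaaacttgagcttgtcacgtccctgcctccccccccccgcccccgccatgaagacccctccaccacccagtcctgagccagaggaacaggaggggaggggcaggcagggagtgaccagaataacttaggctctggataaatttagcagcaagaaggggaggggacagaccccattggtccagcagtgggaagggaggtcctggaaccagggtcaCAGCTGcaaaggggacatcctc
Ryr2: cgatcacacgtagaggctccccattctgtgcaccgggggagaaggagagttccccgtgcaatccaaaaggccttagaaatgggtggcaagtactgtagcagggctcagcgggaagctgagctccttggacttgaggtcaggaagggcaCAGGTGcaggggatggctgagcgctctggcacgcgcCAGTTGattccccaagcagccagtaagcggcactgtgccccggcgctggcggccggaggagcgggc
Casq1: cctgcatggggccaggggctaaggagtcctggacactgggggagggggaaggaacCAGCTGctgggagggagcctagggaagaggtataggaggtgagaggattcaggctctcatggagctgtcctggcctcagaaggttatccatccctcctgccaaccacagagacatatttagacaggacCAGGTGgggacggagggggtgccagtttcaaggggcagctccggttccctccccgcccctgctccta

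All 6 matched promoters hold an E-box, those of these 4 genes as well as Jph2, which also fell in iCKO, and Casq2, which was not called, as do 66.0% of 27025 RefSeq promoter windows of this length. These matches describe letters only. The match lies at -59 to -54 in Pln, -22 to -17 in Hrc, -102 to -97 and -66 to -61 in Ryr2, and -195 to -190 and -67 to -62 in Casq1, counted back from the start. Of the other letters searched on both strands, the GATA motif AGATAA was found in Pln alone of these 4 (10.3% of all windows), and the GC-box GGGCGG in Hrc and Casq1 and also in Jph2 (32.9%). The MEF2 consensus (3.23% of windows) and the MCAT letters CATTCC (12.6%) were in none of the 4. Base composition differed widely, with 32.8% G and C in Pln against 59.6% in Hrc, 63.2% in Ryr2 and 61.6% in Casq1. RefSeq promoters were matched for 6 of the 10 genes, Jph2 and Casq2 being the others.

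Across the set, the mRNAs of the pump, its main inhibitor, the release channel and the proteins Hrc, Trdn and Jph2 around it fell in iCKO, all but Jph2 to between 16.3% and 39.1% of control, whereas Casq1 rose and Casq2 and Asph did not pass the test. In iCKO against CTR2, 6 of 9 tested genes fell (Ryr2, Atp2a2, Pln, Trdn, Jph2, Hrc) and 1 rose, by edgeR's quasi-likelihood test at a Benjamini-Hochberg adjusted p under 0.05. Over all 13548 genes 44.8% were called, 19.5% lower and 25.2% higher, so that 56.4% of the calls were higher, and 71.5% with total counts in place of TMM scaling. The groups did not overlap for these 7 genes, as for 27.0% of all genes in the lower and 31.9% in the higher direction. The median log2 fold change was -1.35 over the 9 genes and 0.03 over all genes. These are whole-tissue libraries, in which fewer cardiomyocytes and less RNA per cardiomyocyte cannot be told apart. In the same libraries 6 of 8 cardiomyocyte markers fell (median -0.82), their summed level being 49845 to 60159 CPM in iCKO, and 7 of 7 macrophage markers rose (median 1.56). Of the fibroblast markers 4 of 7 rose and 1 fell, their sum being 3044 to 4896 CPM against 856 to 1002 CPM in CTR2, and 4 of 6 endothelial markers fell (699 to 870.0 CPM against 1130 to 1397 CPM). Their part in the changes of the calcium genes was not tested.

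In mCKO the same test called none of the 9 genes without a block, nor any of 13353 genes (percent called 0). At an unadjusted p under 0.05 there were 1164 genes (8.72%), of which Casq1 was the single calcium gene, and DESeq2 called 310 genes and limma-voom 0, neither any of the 9. With the replicate block 5 of 9 fell (Ryr2, Atp2a2, Trdn, Jph2, Hrc) and Casq1 rose, against 13.8% of all genes called, 6.45% lower and 7.32% higher. Of all calls with the block 53.2% were higher, and 76.9% with total counts in place of TMM. The median of the 9 genes was -0.29 with the block, beside 0.00 over all genes. The groups did not overlap for Atp2a2 and Jph2, both lower (7.30% of all genes), and for Casq1, higher (7.69%). Without both replicate 3 libraries and with no block, Ryr2, Atp2a2, Jph2 and Hrc fell. In that fit 526 of 13357 genes were called lower and 514 higher. In the mCKO libraries 5 of 8 cardiomyocyte markers fell with the block (median -0.22), 7 of 7 macrophage markers rose (median 0.59) and 3 of 7 fibroblast markers rose (the collagens Col1a1, Col1a2 and Col3a1). The fibroblast sum lay at 1048 to 1864 CPM in mCKO and 934 to 1563 CPM in CTR1. Their part was not tested either.

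**Figure D1:**
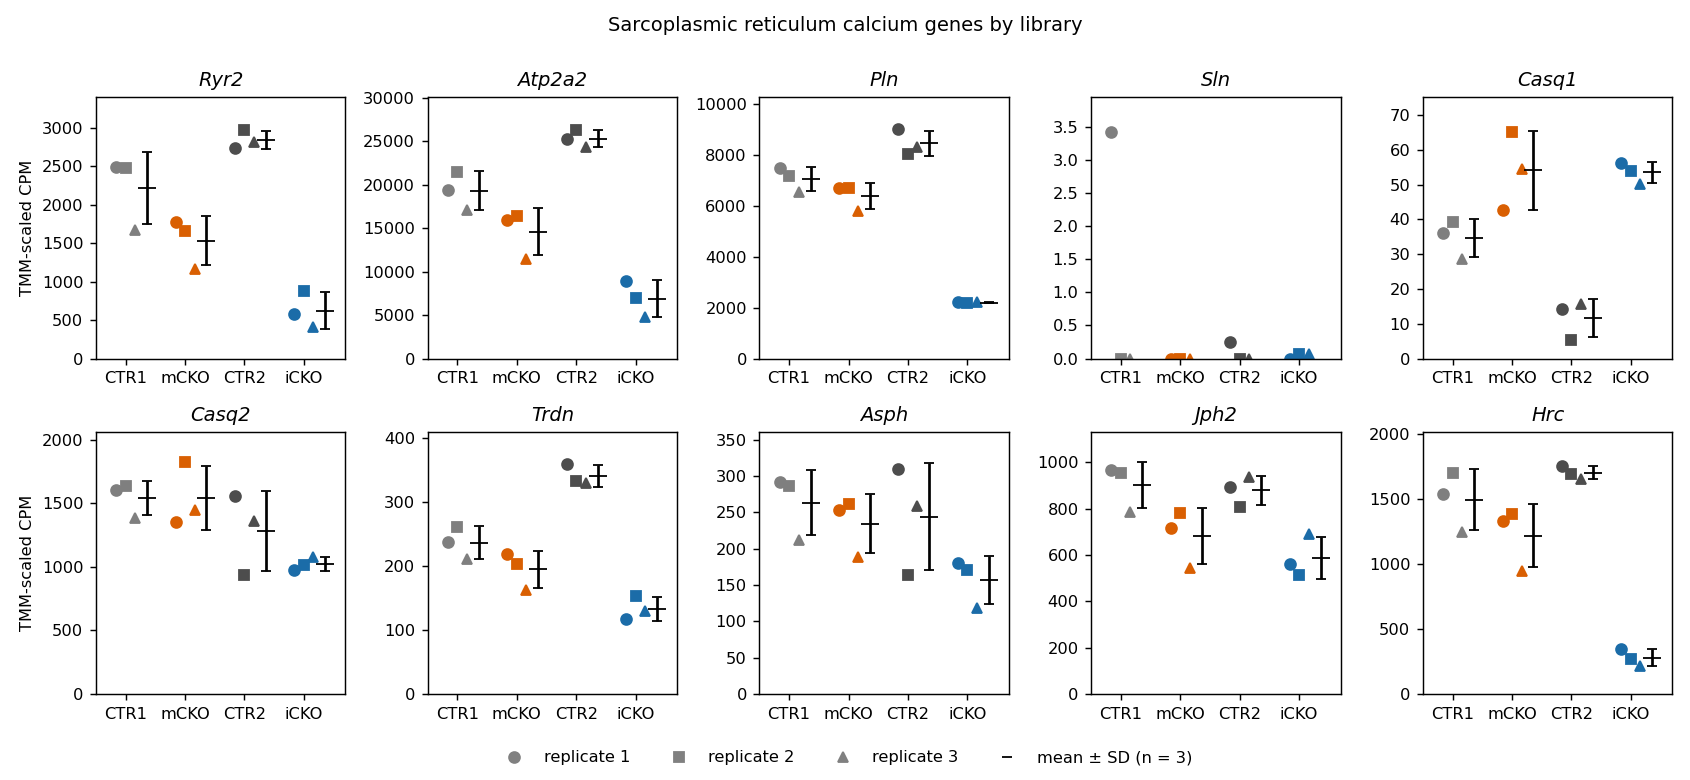
TMM-scaled CPM of the 10 calcium genes in each library, 1 panel per gene, with symbols for the replicate number and bars for the mean ± SD of 3 libraries (not drawn for Sln). All iCKO libraries lie below all CTR2 libraries for Ryr2, Atp2a2, Pln, Trdn, Jph2 and Hrc, while Casq1 lies above, and mCKO overlaps CTR1 except for Atp2a2, Jph2 and Casq1.

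The pump and its inhibitors come first. Atp2a2 (Entrez 11938, protein coding, chromosome 5, 122453513 to 122502225 in GRCm38, minus strand) encodes SERCA2, the calcium ATPase of the cardiac store. It held 25272, 26316 and 24291 CPM in CTR2 and 8967, 6914 and 4803 CPM in iCKO. Every iCKO library lay far below every control, the lowest being replicate 3. Means were 25293 ± 1013 and 6895 ± 2082 CPM (SD, n = 3), and Atp2a2 fell 3.67-fold (log2 fold change -1.88 ± 0.22 SE, edgeR adjusted p = 0.00041). Atp2a2 alone made up 2.28 to 2.42% of all counts in CTR2 and 0.498 to 0.966% in iCKO. In the constitutive model CTR1 held 19423, 21477 and 17044 CPM and mCKO 15969, 16342 and 11443 CPM. The groups did not overlap, and replicate 3 was the lowest of both. The mean fell from 19315 ± 2219 to 14585 ± 2727 CPM (SD, n = 3) with the block (-0.42 ± 0.06, adjusted p = 0.0017), and the change was -0.41 ± 0.17 (adjusted p = 0.57) without it.

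Pln (Entrez 18821, protein coding, chromosome 10, 53337686 to 53345999, plus strand) encodes phospholamban, which slows the pump until it is phosphorylated. Its control level in CTR2 was 9010.1, 8037 and 8320.1 CPM, and iCKO libraries held 2205, 2183 and 2206 CPM. The iCKO values were nearly the same in all 3 libraries and lay far below the controls. The mean fell 3.85-fold, from 8456 ± 500.3 to 2198 ± 12.8 CPM (SD, n = 3), with a log2 fold change of -1.94 ± 0.14 (edgeR adjusted p = 6.1e-05). CTR1 held 7468, 7175 and 6523 CPM and mCKO 6701, 6679 and 5793 CPM. These ranges overlapped through CTR1 replicate 3, and the change was -0.14 ± 0.11 (adjusted p = 0.87; interval -0.41 to 0.13) without the block and -0.14 ± 0.05 (adjusted p = 0.098) with it. On the opposite strand the annotated non-coding gene Gm47644 covers 59.6% of the exon bases of Pln and Cep85l 5.11%. As the strand setting of the counting is not given in the sources used here, their reads cannot be told apart from those of Pln.

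Sln (Entrez 66402, protein coding, chromosome 9, 53850251 to 53853849, plus strand) encodes sarcolipin, a pump inhibitor of atrium and skeletal muscle. It was nearly absent from these ventricles, with raw counts of 70, 0 and 0 in CTR1, 0, 0 and 0 in mCKO, 5, 0 and 0 in CTR2 and 0, 2 and 2 in iCKO. Only CTR1 replicate 1 was above 5 counts. A count of 0 allows up to 3 counts, which is 0.106 to 0.157 CPM depending on the library and covers counting error only. CTR1 replicate 1 also held more counts of the atrial light chains Myl7 (218) and Myl4 (244) than the other CTR1 libraries (8 and 26 for Myl7, 42 and 79 for Myl4). The 8 atrial markers together lay at 208 to 403 CPM in CTR1 and 728 to 1715 CPM in mCKO. Their sum was 176 to 400.1 CPM in CTR2 and 4062 to 8180.5 CPM in iCKO. Nppa led this sum in every group, with a mean of 238 CPM in CTR1 and 235 CPM in CTR2. Bmp10 was at 0 in every CTR1 and iCKO library. Of 7 tested atrial markers 1 rose in mCKO with the block, and 2 rose and 2 fell in iCKO. Whether atrial tissue supplied the Sln counts was not tested.

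A ratio of counts within a library does not depend on scaling, and sets the inhibitor against the pump. The log2 ratio of Pln to Atp2a2 was -1.38, -1.58 and -1.39 in CTR1 and -1.25, -1.29 and -0.98 in mCKO. Pln was thus higher relative to the pump in every mCKO library, by 0.27 on average (two-sided exact permutation p = 0.1, the smallest that 3 against 3 allows, and 0.4 adjusted over 4 ratio tests). Without mCKO replicate 3 this difference was 0.18. In iCKO the ratio was -2.02, -1.66 and -1.12 against -1.49, -1.71 and -1.55 in CTR2. The spread of the iCKO libraries enclosed the controls, and the difference was -0.02 (exact permutation p = 1). Per length, Pln stood at 0.542, 0.696 and 1.01 times the level of Atp2a2 in iCKO replicates 1, 2 and 3. The planned ratios of Sln to Atp2a2 were not computed, because Sln held 0 to 5 counts in 11 of 12 libraries.

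Ryr2 (Entrez 20191, protein coding, chromosome 13, 11553099 to 12106945, minus strand) encodes the channel through which the store empties. In CTR2 it was measured at 2734, 2969.8 and 2820.0 CPM, and in iCKO at 579, 884 and 410.0 CPM. The groups were far apart, though the iCKO libraries differed among themselves by more than the controls did. Ryr2 fell 4.55-fold, from 2841 ± 119 to 624 ± 240.0 CPM (SD, n = 3; log2 fold change -2.19 ± 0.27, edgeR adjusted p = 0.00045). In CTR1 the values were 2489, 2479.6 and 1674 CPM and in mCKO 1779, 1659 and 1170.4 CPM. CTR1 replicate 3 lay between mCKO replicates 1 and 2, so the groups overlapped, but each mCKO library was below the CTR1 library of its number, with log2 differences of -0.48, -0.58 and -0.52. Means were 2214 ± 468 CPM for CTR1 and 1536 ± 322 CPM for mCKO (SD, n = 3), so that 69.4% of the control level was left. Ryr2 fell in mCKO with the block (-0.53 ± 0.06, adjusted p = 0.00032), and the change was -0.53 ± 0.22 (adjusted p = 0.58) without it.

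The ratio of channel to pump overlapped its controls in both models. The log2 ratio of Ryr2 to Atp2a2 was -2.96, -3.11 and -3.35 in CTR1 and -3.17, -3.30 and -3.29 in mCKO, a difference of -0.11 in means within overlapping groups (exact permutation p = 0.5, adjusted 0.67). In iCKO it was -3.95, -2.97 and -3.55 against -3.21, -3.15 and -3.11 in CTR2, where 2 of 3 iCKO libraries were lower than every control and replicate 2 was higher (difference -0.34, exact permutation p = 0.4, adjusted 0.67). The iCKO difference was -0.10 without iCKO replicate 1 and -0.60 without iCKO replicate 2, and that of mCKO was -0.02 without CTR1 replicate 1 and -0.21 without CTR1 replicate 3. A design of 3 against 3 cannot reach a p under 0.05 here.

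Hrc (Entrez 15464, protein coding, chromosome 7, 45335269 to 45338973, plus strand) encodes a calcium buffer that binds both triadin and the pump, and it fell furthest of the 9. CTR2 held 1753, 1688 and 1656 CPM and iCKO 347, 267 and 218 CPM. The groups were widely separated, and the iCKO libraries differed among themselves by more than the controls did. The mean fell 6.13-fold, from 1699 ± 49.7 to 277 ± 64.9 CPM (SD, n = 3; log2 fold change -2.62 ± 0.20, edgeR adjusted p = 7.9e-05), and only 136 of the 13548 genes tested had a lower fold change. In CTR1 it was measured at 1538, 1700.1 and 1242 CPM and in mCKO at 1327, 1381 and 941 CPM. The groups overlapped, with replicate 3 lowest in both. Hrc fell in mCKO with the block (-0.30 ± 0.06, adjusted p = 0.0091) and was not called without it (-0.30 ± 0.19, adjusted p = 0.8). Under the block the call was lost without both libraries of number 2 (-0.31, adjusted p = 0.056) or number 3 (-0.26, adjusted p = 0.097).

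Trdn (Entrez 76757, protein coding, chromosome 10, 33083483 to 33476709, plus strand) encodes triadin, which anchors calsequestrin at the channel. In CTR2 it stood at 359, 332 and 329 CPM, and in iCKO at 116, 153 and 129 CPM, again without overlap. Trdn fell 2.56-fold in iCKO, from 340.1 ± 16.6 to 133 ± 18.8 CPM (SD, n = 3; -1.35 ± 0.16, edgeR adjusted p = 0.00036). CTR1 held 237, 261 and 210.3 CPM and mCKO 219, 202 and 162 CPM, where mCKO replicate 1 overlapped the lowest control. It fell with the block (-0.29 ± 0.07, adjusted p = 0.023; 0.073 with total counts in place of TMM), and was not called without it (-0.28 ± 0.15, adjusted p = 0.73). The blocked call was lost without number 2 (-0.24, adjusted p = 0.16) or number 3 (-0.24, adjusted p = 0.18). Relative to Ryr2, Trdn was higher in every iCKO library than in any CTR2 library, by 0.89 in log2 ratio, a value given without a test.

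Asph (Entrez 65973, protein coding, chromosome 4, 9449085 to 9669344, minus strand) encodes junctin, junctate and the enzyme aspartate beta-hydroxylase from 1 locus, which gene counts do not separate. CTR2 held 309.8, 164 and 258 CPM and iCKO 181, 171 and 119 CPM. CTR2 replicate 2 lay among the iCKO values, so the groups overlapped. The change was -0.64 ± 0.26 (edgeR adjusted p = 0.074; 95% interval -1.23 to -0.05), and without CTR2 replicate 2 Asph was called (-0.86, adjusted p = 0.022), as it was by DESeq2 (-0.68, adjusted p = 0.028). In CTR1 it stood at 292, 287 and 213 CPM and in mCKO at 253, 262 and 188 CPM, overlapping (-0.17 ± 0.06, adjusted p = 0.096 with the block; -0.17 ± 0.19, adjusted p = 0.94 without it). Clvs1 on the opposite strand covers 14.3% of its exon bases.

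With all libraries in the fit, only Casq1 of the calsequestrins was called, in iCKO and, with the block, in mCKO. Casq2 (Entrez 12373, protein coding, chromosome 3, 102086415 to 102146514, plus strand) encodes the cardiac calsequestrin, the main calcium buffer of the store. It was measured at 1553, 936 and 1356 CPM in CTR2 and 976, 1012 and 1078 CPM in iCKO. The control values were spread widely, with replicate 2 below all iCKO libraries. The change was -0.33 ± 0.20 (edgeR adjusted p = 0.21; 95% interval -0.78 to 0.12), and -0.51 (adjusted p = 0.041) without CTR2 replicate 2. CTR1 held 1602, 1635 and 1385 CPM and mCKO 1352, 1827 and 1444 CPM. The mCKO libraries surrounded the controls and the means were alike, at 1541 ± 136 and 1541 ± 252 CPM (SD, n = 3), with a log2 fold change of 0.00 ± 0.15 (adjusted p = 1) without the block and an interval of -0.36 to 0.36. Because Ryr2 fell and Casq2 was not called, the log2 ratio of Casq2 to Ryr2 was higher in every iCKO than in every CTR2 library, by 1.96 on average, given without a test.

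Casq1 (Entrez 12372, protein coding, chromosome 1, 172209894 to 172219895, minus strand) encodes the calsequestrin of fast skeletal muscle, and it was the one gene of the set that rose. CTR2 held 14.2, 5.46 and 15.6 CPM and iCKO 56.3, 53.9 and 50.3 CPM. All iCKO libraries were above all controls, of which replicate 2 was the lowest. Casq1 rose 4.56-fold, from 11.7 ± 5.48 to 53.5 ± 3.02 CPM (SD, n = 3; log2 fold change 2.19 ± 0.34, edgeR adjusted p = 0.0013). Without CTR2 replicate 2 it was 1.84 (adjusted p = 7e-04). In CTR1 the values were 36.2, 39.2 and 28.7 CPM and in mCKO 42.6, 65.2 and 54.6 CPM, with no overlap. It rose with the block (0.63 ± 0.13, adjusted p = 0.022), and the change was 0.64 ± 0.19 (adjusted p = 0.39) without it. The blocked call was lost without number 2 (0.58, adjusted p = 0.073) or number 3 (0.49, adjusted p = 0.11). On a scale shared by all 12 libraries the 2 knockouts held like levels, 42.5 to 64.9 CPM in mCKO and 51.4 to 54.4 CPM in iCKO. The control ranges lay apart, at 28.6 to 39.1 CPM in CTR1 and 5.59 to 15.9 CPM in CTR2. They also lay apart on that scale, but higher in CTR2, for Ryr2, Atp2a2, Pln and Trdn. For Atp2a2 they were 17010 to 21439 CPM in CTR1 and 24826 to 26909 CPM in CTR2. Control ranges overlapped for Hrc, Casq2, Asph and Jph2. Gm17224, an antisense gene, covers 8.00% of the exon bases of Casq1.

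Even after the rise, Casq1 remained a small part of the calsequestrin mRNA. Per length it stood at 0.0656 to 0.0810 times the level of Casq2 in the iCKO libraries and at 0.00833 to 0.0162 times in CTR2. The log2 ratio of the 2 counts was higher in every knockout library than in its controls, by 2.61 in iCKO and 0.64 in mCKO, given without a test. Other genes of fast skeletal muscle moved in the same libraries. Their 10 markers summed to 330.3 to 375 CPM in iCKO against 17.0 to 23.5 CPM in CTR2, and the 8 present in the other table to 44.4 to 54.0 CPM in mCKO against 19.8 to 26.9 CPM in CTR1. In iCKO 4 of 5 tested markers rose, with Mybpc2 (myosin-binding protein of fast muscle) at 301 ± 30.3 CPM (SD, n = 3) making up most of the sum. With the block 3 of 4 tested rose in mCKO. The fast myosin heavy chains, which define those fibres, were at 0 in every iCKO library for Myh1 and Myh4, and Myh2 was at 0.0117 CPM on average.

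Jph2 (Entrez 59091, protein coding, chromosome 2, 163336242 to 163398049, minus strand) encodes the junctophilin that holds the store at the transverse tubule, and its fold change was close in size in both models. CTR2 held 892, 809 and 936 CPM and iCKO 559, 515 and 689 CPM, without overlap. Jph2 fell 1.49-fold in iCKO, from 879 ± 64.6 to 588 ± 90.4 CPM (SD, n = 3; -0.58 ± 0.16, edgeR adjusted p = 0.019). This call is not firm. It was lost with total counts in place of TMM (-0.37, adjusted p = 0.07) and without CTR2 replicate 1 (-0.58, adjusted p = 0.064), CTR2 replicate 3 (-0.54, adjusted p = 0.084), iCKO replicate 1 (-0.55, adjusted p = 0.05) or iCKO replicate 2 (-0.49, adjusted p = 0.073). CTR1 held 967, 954 and 786 CPM and mCKO 717, 781 and 546 CPM, with the highest mCKO library just under the lowest control. Jph2 fell in mCKO with the block (-0.41 ± 0.07, adjusted p = 0.0026), and the change was -0.40 ± 0.17 (adjusted p = 0.58) without it. Leaving out number 3 under the block ended the call (-0.36, adjusted p = 0.06).

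**Figure D2:**
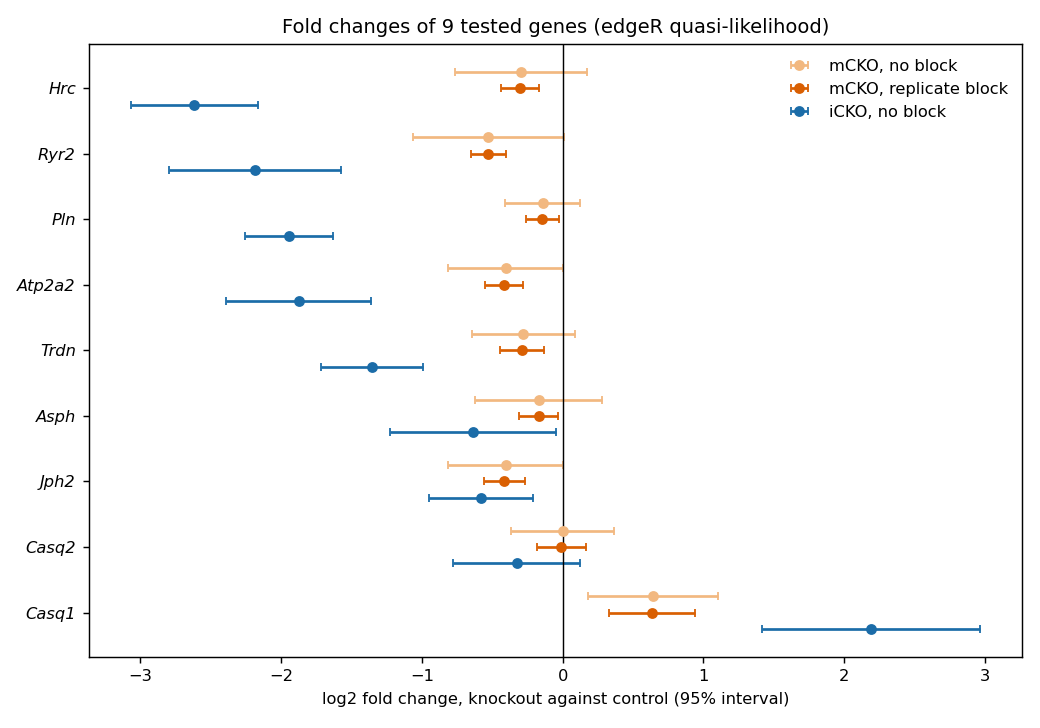
Log2 fold changes of the 9 tested genes with 95% intervals, for mCKO against CTR1 without and with the replicate block and for iCKO against CTR2. The iCKO points run from -2.62 for Hrc to 2.19 for Casq1, and the mCKO points from -0.53 for Ryr2 to 0.64 for Casq1, with narrower intervals under the block.

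Whether the 2 models differed was tested directly, as the log2 fold change in mCKO minus that in iCKO over all 12 libraries. Of the 9 genes, 5 were called with a less negative log2 fold change in mCKO than in iCKO. Casq1 was called with a smaller positive one. Over all 13871 genes 20.8% were called, 11.0% higher and 9.88% lower. Of these calls over all genes 52.6% were higher, and 34.0% with total counts in place of TMM. The difference was 2.36 ± 0.27 for Hrc (edgeR adjusted p = 0.00022), 1.84 ± 0.16 for Pln (5.4e-05), 1.70 ± 0.36 for Ryr2 (0.0071), 1.51 ± 0.29 for Atp2a2 (0.0037) and 1.11 ± 0.22 for Trdn (0.0045). For Casq1 it was -1.51 ± 0.42 (adjusted p = 0.025), a call that does not hold when CTR1 replicate 2 (adjusted p = 0.05) or mCKO replicate 1 (0.062) is left out. Jph2 was not called, with a difference of 0.21 ± 0.24 (adjusted p = 0.58) and a 95% interval of -0.33 to 0.74. Asph (0.51, interval -0.22 to 1.24) and Casq2 (0.36, interval -0.21 to 0.93) were not called either. The models differ in Cre form, tamoxifen, time since deletion and control group, which cannot be told apart here. Age is given for mCKO and CTR1 only, so it may differ as well.

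The order of levels per length can be given for each group from CPM per kilobase of annotated exon (RPKM). In CTR1 it ran from Atp2a2 (3176 ± 365 RPKM) through Pln (2557 ± 176), Hrc (582 ± 90.6), Casq2 (563 ± 49.6), Jph2 (212 ± 23.7), Ryr2 (76.9 ± 16.3), Trdn (25.3 ± 2.71), Casq1 (17.8 ± 2.78) and Asph (16.4 ± 2.75; all SD, n = 3) to Sln. Hrc and Casq2, and Casq1 and Asph, differed by less than their spread. In iCKO the order was Atp2a2 (1134 ± 342 RPKM), Pln (797 ± 4.63), Casq2 (373 ± 18.9), Jph2 (138 ± 21.2), Hrc (108 ± 25.3), Casq1 (27.4 ± 1.55), Ryr2 (21.7 ± 8.34), Trdn (14.2 ± 2.01) and Asph (9.74 ± 2.06). There Atp2a2 and Pln, Casq1 and Ryr2, and Ryr2 and Trdn, differed by less than the larger SD of the pair. Jph2 and Hrc differed by more than either SD but by less than both SDs together. In CTR2 Ryr2 had stood at 98.7 ± 4.15 RPKM and Casq1 at 6.02 ± 2.81 RPKM (SD, n = 3), so the calsequestrin of skeletal muscle moved from well below the release channel to a level within its spread. Exon lengths join all annotated transcripts, which lowers the values of genes with long alternative ends.

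**Figure D3:**
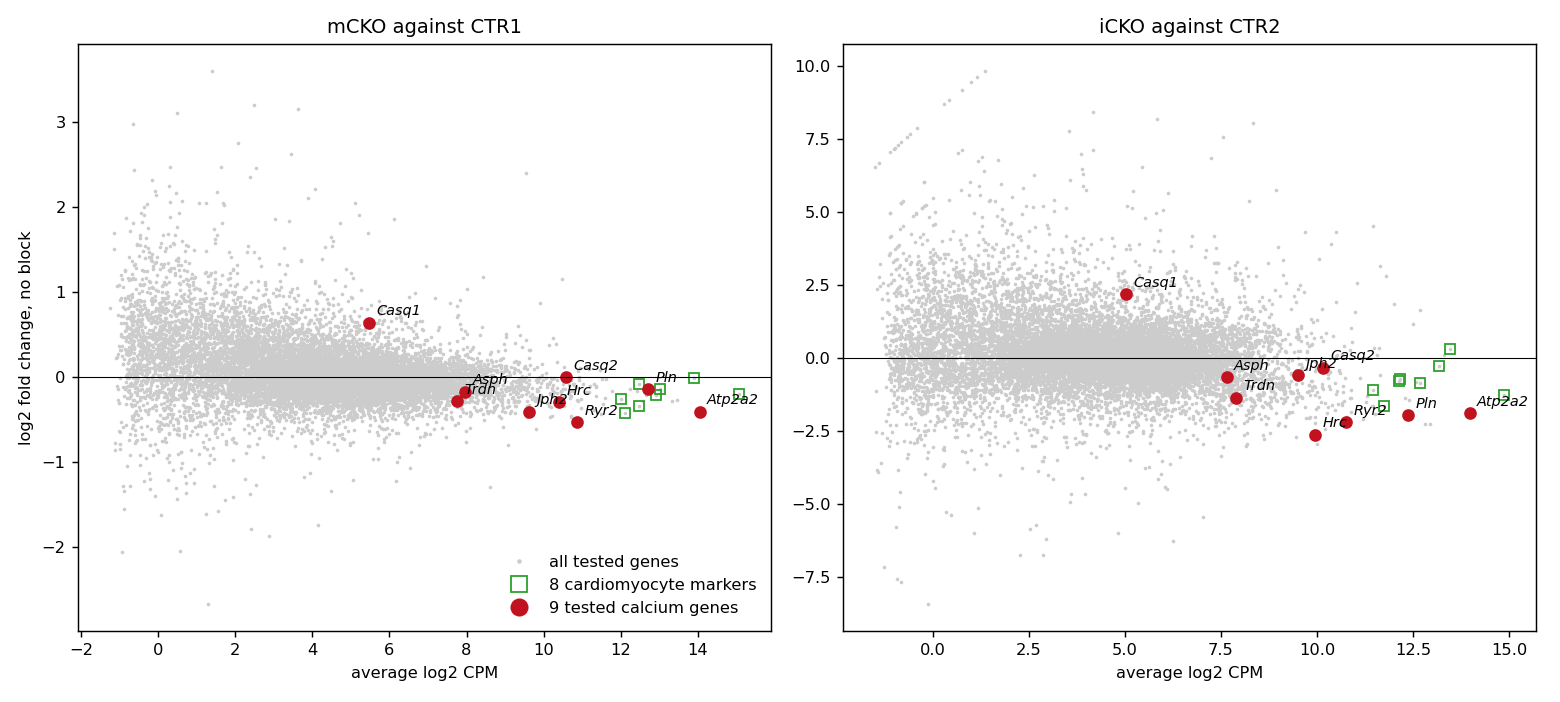
Average log2 CPM against log2 fold change without the block for all tested genes (grey), 8 cardiomyocyte markers (green squares) and the 9 calcium genes (red), for mCKO and iCKO; the vertical axes differ in range. In iCKO, Hrc, Ryr2, Pln and Atp2a2 lie below the lowest marker, Tnni3 at -1.63, while Trdn, Jph2, Casq2 and Asph lie among them.

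The calcium genes can also be read against the cardiomyocyte markers rather than all genes. Of these markers Myh6 had the highest mean in every group, at 42769 ± 1716 CPM in CTR2 and 17725 ± 6083 CPM in iCKO (SD, n = 3). Tnnt2 and Actc1 overlapped between those 2 groups. The summed scale thus leans on Myh6 and does not measure cardiomyocyte content. Relative to the summed counts of the 8 markers in the same library, Hrc (-1.86), Ryr2 (-1.48), Pln (-1.16), Atp2a2 (-1.14) and Trdn (-0.58) were lower in every iCKO library than in any CTR2 library on the log2 scale. Casq2 was higher in every iCKO library on that scale, by 0.48, the opposite sign from its CPM. Casq1 was higher by 3.11, and Asph (0.17) and Jph2 (0.19) overlapped. In mCKO Ryr2 was lower in every library (-0.35) and Casq1 higher (0.81), while the other 7 genes overlapped their controls, Atp2a2 at -0.24, Jph2 at -0.23 and Hrc at -0.12. Within same-numbered libraries, however, 4 of the 9 genes were lower in mCKO in all 3 pairs: Ryr2 (-0.34, -0.41 and -0.29), Atp2a2 (-0.13, -0.22 and -0.35), Jph2 (-0.28, -0.12 and -0.30) and Hrc (-0.06, -0.13 and -0.17). Casq1 was higher in all 3 (0.38, 0.90 and 1.15). With 3 pairs the smallest two-sided exact sign-flip permutation p is 0.25, which these 5 genes gave. In the comparison between groups, each of the non-overlapping values has a two-sided exact permutation p of 0.1 (n = 3 a group), the smallest this design allows. Shares over all genes were not computed on this scale, so the counts here only describe these 9 genes.

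**Figure D4:**
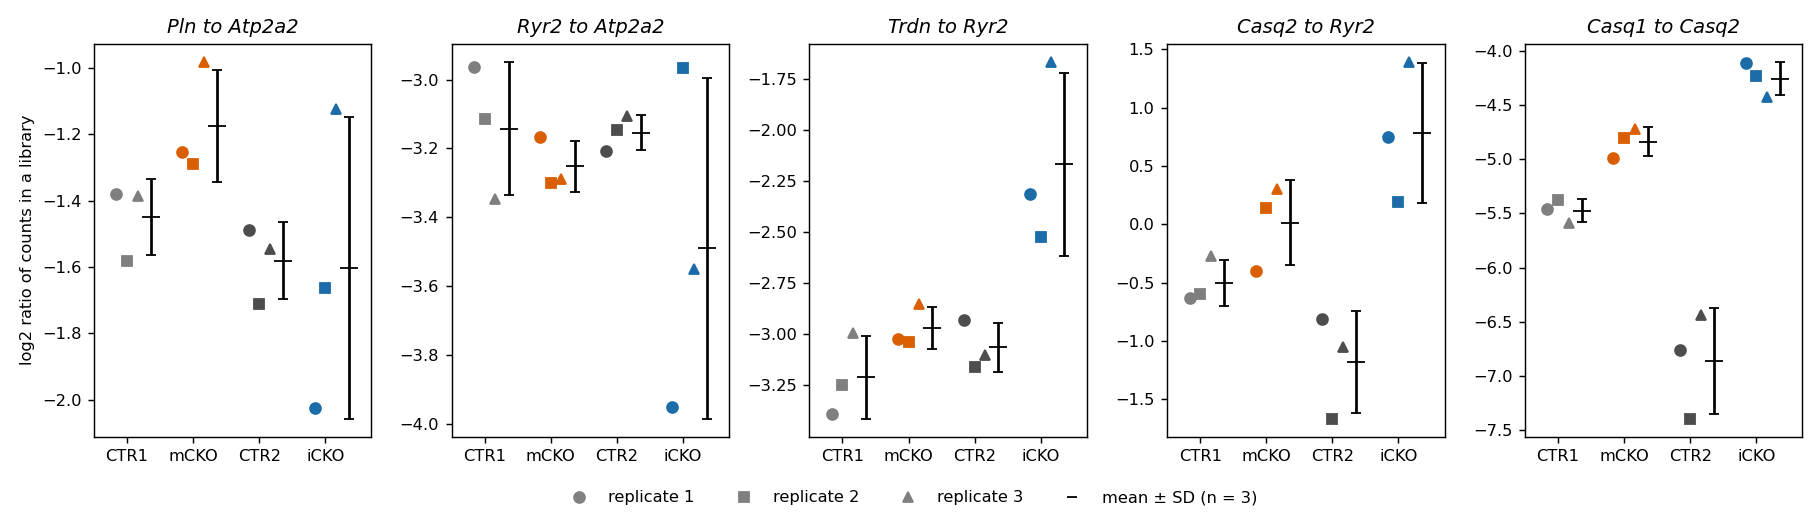
Log2 ratio of the counts of 2 genes within each library, with symbols for the replicate number and bars for the mean ± SD of 3 libraries; the vertical axes differ. Pln to Atp2a2 is higher in every mCKO than CTR1 library and widely spread in iCKO, and Trdn to Ryr2, Casq2 to Ryr2 and Casq1 to Casq2 are higher in every iCKO than CTR2 library.

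A wider list of 42 genes that regulate or accompany these proteins was examined in the same way, of which 39 were tested in each model. In iCKO 15 fell, 11 rose and 13 were not called, beside the 44.8% of all genes called. In mCKO none was called without the block (4 of 39 at an unadjusted p under 0.05), and 8 fell and 2 rose with it, beside 13.8% of all genes. Calls in mCKO named for these further genes therefore come from the fit with the block alone, the lowest adjusted p without it being 0.27. The gene of this list that fell furthest in iCKO was Strit1, which encodes DWORF, a small peptide that activates the pump by displacing phospholamban. It held 15.8, 12.6 and 12.04 CPM in CTR2 and 1.06, 0.528 and 1.94 CPM in iCKO, from 15 to 52 raw counts, and fell (-3.52 ± 0.40, edgeR adjusted p = 0.00032). In CTR1 it stood at 12.8, 14.1 and 29.8 CPM and in mCKO at 4.21, 5.68 and 15.2 CPM, with replicate 3 the highest of both groups, opposite to the calcium genes above. It fell in mCKO with the block (-1.25 ± 0.13, adjusted p = 0.00025), and was not called without it (-1.17 ± 0.56, adjusted p = 0.64). Thus the pump, its inhibitor Pln and its activator Strit1 all fell in iCKO.

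Among other channels, Cacna1c, the pore of the L-type channel that triggers release, fell in iCKO from 606 ± 58.4 to 142 ± 48.6 CPM (SD, n = 3; -2.10 ± 0.25, edgeR adjusted p = 0.00041) and in mCKO with the block (-0.43 ± 0.09, adjusted p = 0.011). Tmem38a, a potassium channel that balances charge during release, fell in iCKO from 645 ± 41.8 to 224 ± 19.3 CPM (-1.53 ± 0.15, adjusted p = 0.00016) and in mCKO with the block (-0.29 ± 0.06, adjusted p = 0.01). Its CTR1 libraries held 656 to 666 CPM and its mCKO libraries 522 to 553 CPM, and replicate 3 did not stand apart. Its relative Tmem38b fell in mCKO with the block (-0.31 ± 0.07, adjusted p = 0.015) and was not called in iCKO (-0.01 ± 0.19, adjusted p = 0.98). Ryr3, Itpr2 and Itpr3, minor release channels, fell in iCKO, Ryr3 from 2.16 ± 0.728 to 0.24 ± 0.144 CPM. Slc8a1, the sodium-calcium exchanger that extrudes calcium from the cell, fell in mCKO with the block (-0.35 ± 0.07, adjusted p = 0.011) but was not called in iCKO (-0.19 ± 0.26, adjusted p = 0.58). The difference between models was called for neither Tmem38b (-0.26 ± 0.22, adjusted p = 0.43) nor Slc8a1 (-0.13 ± 0.33, adjusted p = 0.81).

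Skeletal muscle relatives moved as Casq1 did in part. Ryr1, the skeletal ryanodine receptor, rose in iCKO from 0.482 ± 0.158 to 6.03 ± 2.44 CPM (SD, n = 3; 3.64 ± 0.40, edgeR adjusted p = 0.0003), from 8 to 13 raw counts in CTR2 to 114 to 250 in iCKO. It rose in mCKO with the block (1.33 ± 0.38, adjusted p = 0.04). Jsrp1, a junctional protein of skeletal muscle, rose in iCKO (3.04 ± 0.58, adjusted p = 0.0035) and in mCKO with the block (2.46 ± 0.49, adjusted p = 0.0086), from 1 to 8 raw counts in the controls. Atp2a1, the pump of fast fibres, took the other direction in iCKO, where it fell (-1.49 ± 0.44, adjusted p = 0.024), and its change in mCKO was 1.98 ± 0.59 (adjusted p = 0.11 with the block). Its mCKO libraries held 2.86 to 7.75 CPM and its CTR1 libraries 0.734 to 2.09 CPM, without overlap. The difference between models was 3.55 ± 0.72 for Atp2a1 (adjusted p = 0.0055).

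Regulators of the channel and pump went both ways in iCKO. Fkbp1a and Fkbp1b, which stabilise the closed channel, the channel-binding Sri (sorcin), the luminal calcium binder Calr (calreticulin), Hax1 (a partner of phospholamban), Selenon and Sypl2 rose, with log2 fold changes of 0.75 for Hax1 to 1.77 for Fkbp1b. Fkbp1b and Sypl2 rest on low levels, with means of 0.459 and 0.59 CPM in CTR2 and 1.58 and 1.87 CPM in iCKO. The phosphodiesterases Pde3a and Pde4d, the kinase gene Speg, the phosphatase subunits Ppp1r3a and Ppp2r3a, the kinase anchor Akap7, the store sensor Stim1 and the pump Atp2a3 fell, from -1.40 for Pde3a to -0.65 for Stim1. Ppp2r3a (-0.64 ± 0.08, adjusted p = 0.00093), Speg (-0.43 ± 0.07, adjusted p = 0.0025) and Jph1 (-0.38 ± 0.10, adjusted p = 0.027) fell in mCKO with the block. The most abundant genes not called in iCKO were Srl (0.07 ± 0.20), S100a1 (-0.37 ± 0.22), Slc8a1, Ppp1cb (-0.18 ± 0.14), Prkaca (-0.10 ± 0.20) and Akap6 (-0.09 ± 0.30). In the difference between models 11 of 40 tested genes of the list had a higher log2 fold change in mCKO than in iCKO and 1 a lower one. Of all genes 20.8% were called there, 11.0% higher and 9.88% lower. With the block the counts were 12 and 5, and 28.1% of all genes were called, 14.8% higher and 13.3% lower. For Ryr1 the difference between models was -2.29 (edgeR adjusted p = 0.054) without and -2.21 (adjusted p = 0.021) with the block.

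**Figure D5:**
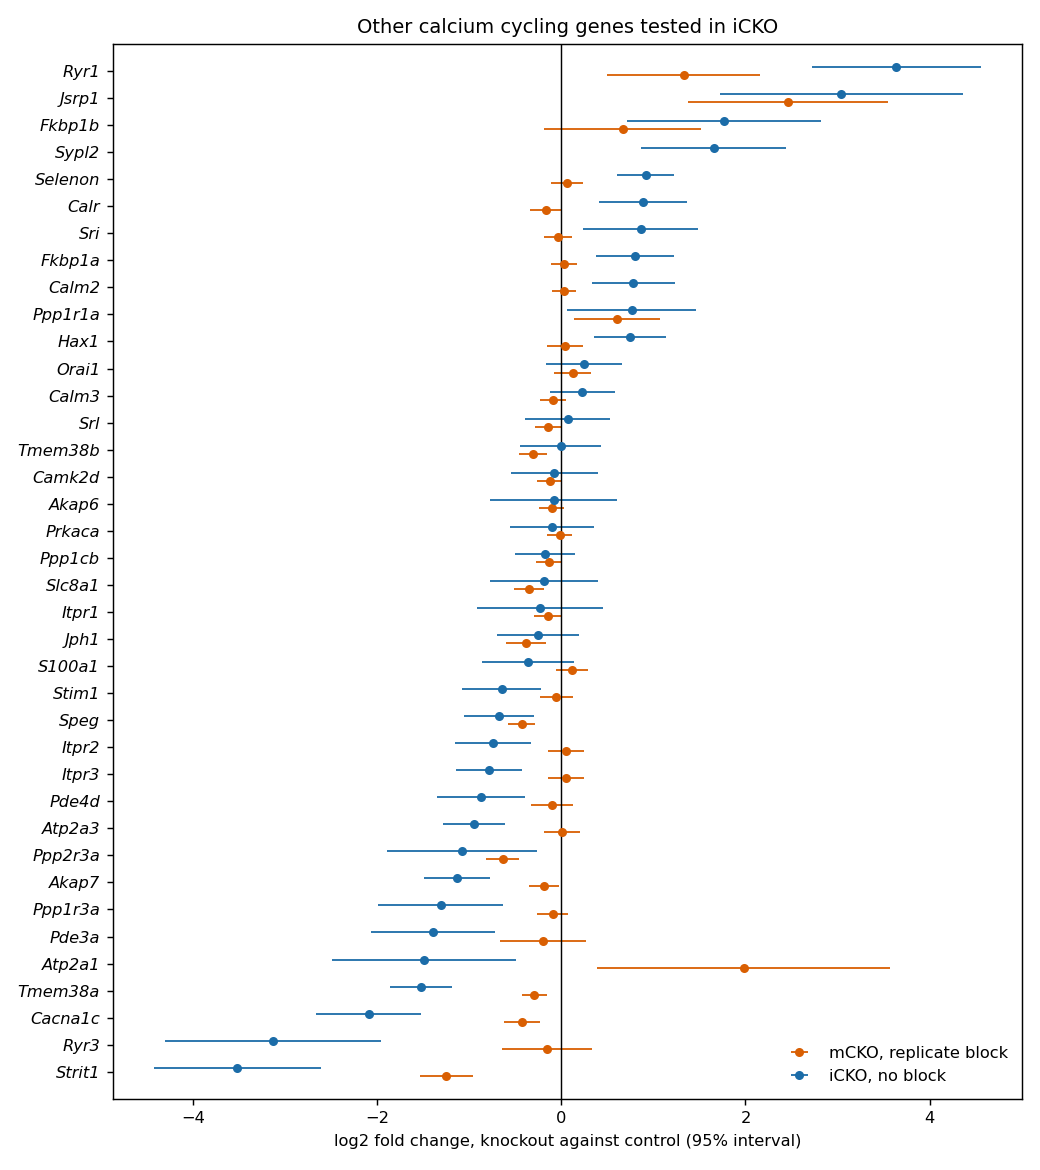
Log2 fold changes with 95% intervals of further calcium cycling genes tested in iCKO, ordered by that change, with mCKO under the replicate block beside them where tested. Strit1, Ryr3, Cacna1c and Tmem38a lie lowest in iCKO and Ryr1 and Jsrp1 highest, and Atp2a1 lies on opposite sides of 0 in the 2 models.

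Over the 12 libraries, the 3 genes with the highest Pearson correlation of log2 CPM with each main gene are given as a description, among 11772 genes of both tables. They were Cdnf, Cacna1c and Phkb for Ryr2 (r = 0.98 each), Mfn1, Nnt and Tcaim for Atp2a2 (0.99 each) and Vdac1, Hadhb and Cacna1s for Pln (0.996, 0.995 and 0.994). The 12 points share 4 groups, so r holds differences between groups as well as between libraries. Within the set, Ryr2 and Atp2a2 had r = 0.97, Pln and Hrc 0.99, Atp2a2 and Hrc 0.96, and Atp2a2 and Casq1 -0.68. Sln, at or near 0, was left out.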

How the data were processed

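Whole-number gene counts, not normalized, were deposited in 2 tables, 1 for each knockout with its control. Per the labels' protocols, RNA was extracted with Trizol and libraries made with a TruSeq stranded mRNA kit. Per the submitters' processing notes, the tools were HISAT2 and DESeq and the build GRCm38; of versions, annotation, counting tool and strand setting, nothing is given in the sources used here. CPM, RPKM and log2 values were computed here from the deposited counts (prior count 2). Genes passing filterByExpr (minimum count 10, total 15) were tested with edgeR 4.0.16 quasi-likelihood fits (TMM, robust) in R 4.3.3, each model on its own 6 libraries and the difference between models on all 12, with Benjamini-Hochberg adjustment over all genes, called at 0.05; ± is the standard error unless SD is named. Intervals are 95%. Alternatives were the replicate block, DESeq2 1.42.0, limma-voom (limma 3.58.1), other scalings, no filter and left-out libraries. DESeq2 with the block, the block without both libraries of a number, levels relative to cardiomyocyte markers (also within same-numbered libraries) and the ratios given without a test were added after seeing the data.

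Across genes, mCKO and CTR1 libraries of one number deviated from their group means together (r = 0.464, 0.532 and 0.823, each over the limit of 0.1), so the numbers were taken to pair them; numbers 1 and 2 also correlated across (0.529 and 0.553), so it is replicate 3 that stands out. What a number marks is not in the labels. Coordinates and promoters came from RefSeq, exon lengths and overlaps from GENCODE M21. The fits were tested on simulated counts. The genes and lists were chosen with earlier results of these data known. Named were all 10 genes, Ddx5, genes of the wider list that were called and up to 6 that were not, and 3 correlated genes each; markers were named as needed. Some genes of the wider list are counted but not reported here. Fits for mCKO and iCKO were scaled apart, so CPM are compared within a model except where a shared scale is named.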

Additional observations from a re-analysis of the deposited data

Results flagged for a closer look

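For 18 genes the knockout changed expression differently in the 2 models by the test of that difference (edgeR, adjusted p under 0.05 over 13871 genes). Of 9 tested calcium genes 5 were called higher and 1 lower, and of 40 tested genes of the wider list 11 higher and 1 lower. Over all genes 20.8% were called. Values are the log2 fold change in mCKO minus that in iCKO. Among the store's own genes they were 2.36 for Hrc, 1.84 for Pln, 1.70 for Ryr2, 1.51 for Atp2a2, 1.11 for Trdn and -1.51 for Casq1. Of the wider list, release channels gave 3.05 for Ryr3, 0.83 for Itpr2 and 0.87 for Itpr3. Pumps and their activator gave 3.55 for Atp2a1, 0.97 for Atp2a3 and 2.37 for Strit1. The remaining values were 1.75 for Cacna1c, 1.27 for Tmem38a, 1.28 for Ppp1r3a, 1.26 for Pde3a, 0.99 for Akap7 and -1.02 for Calr. Cre form, tamoxifen, time since deletion and control group differ between the models together and cannot be told apart. Age, given for mCKO and CTR1 only, may differ too.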

How the results depend on the processing

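In mCKO the count of genes called was 0 without the block, 1839 with the replicate block, 2055 with the block and total counts as library sizes, 1047 with DESeq2 and the block, 1040 without both replicate 3 libraries and no block, 310 with DESeq2 and 4 with no filter; leaving out single libraries gave 0 to 1. Calcium genes called lower numbered 5, 4, 5 and 4 in the settings with 1839, 2055, 1047 and 1040 calls, and those called higher 1, 1, 1 and 0. With the block and both libraries of a number left out, 1508, 1093 and 388 genes were called without number 1, 2 and 3, with 2 to 5 calcium genes lower and 0 to 1 higher. Without both replicate 3 libraries under the block, Ryr2 (adjusted p = 0.023) and Atp2a2 (0.047) were the 2 called. The cause was not tested. Of the calcium genes, 6 lower and 1 higher call in iCKO became 5 to 8 lower over the alternatives, with 1 higher call in each; the replicate block, for which the numbers did not pair these libraries (r = 0.058, -0.090 and -0.161), gave 6 and 1 and called 5491 of all genes against 6068. The 5 higher calls in the difference were made under each alternative run, and the 1 lower call became 0 to 1 when single libraries were left out. The difference in Pln to Atp2a2 ratio in iCKO, near 0, ranged from -0.26 to 0.19 when single libraries were left out, above 0 without iCKO replicate 1 (0.19), iCKO replicate 2 (0.0083) or CTR2 replicate 1 (0.025); in mCKO it ranged from 0.18 to 0.33. For single genes, 403 values under alternatives kept their direction and call, 36 became called and 9 lost the call. The other 11, all for Casq2 near 0 in mCKO, changed sign and were not called. Total counts as library sizes shifted the median of all genes by 0.21 in iCKO, 0.08 in mCKO and -0.17 in the difference. Low counts limit Sln, Ryr1, Ryr3, Jsrp1, Atp2a1, Strit1, Fkbp1b and Sypl2.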
